A study of Callithrix jacchus with 39 samples.

Results

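The inner cell mass (ICM) of common marmoset (Callithrix jacchus) blastocysts was compared during and after hatching with the ICM before hatching. The comparison used 12 of the 39 libraries of the series, chosen by their titles. The later arm held 3 libraries of hatching blastocyst ICM and 3 of hatched blastocyst ICM. The earlier arm held 3 libraries of blastocyst ICM and 3 of expanded blastocyst ICM. The series set marmoset embryonic stem cells beside early embryos, and all 12 libraries were poly(A)+ RNA sequencing of embryos with no treatment or genetic change in the labels. The labels give neither embryo age nor sex, and they do not say how embryos were cultured, how the ICM was separated from the outer layer or whether the libraries of a stage came from separate embryos. If they did not, the p-values reflect technical spread alone.

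A primate blastocyst has an outer trophectoderm, which forms the placenta, around the ICM and a fluid-filled cavity. The cavity expands, and the embryo then leaves its glycoprotein shell, the zona pellucida, by hatching, before it implants. Around this time the ICM sorts into the pluripotent epiblast, marked by NANOG and SOX2, and the hypoblast, marked by GATA6, PDGFRA and GATA4. Hypoblast cells lay down a basement membrane of type IV collagen and laminin and give rise to yolk sac endoderm, which secretes plasma proteins such as apolipoproteins and transferrin.

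Total counts ranged from 48.7 to 54.3 M per library in hatching and hatched ICM, against 49.5 to 55.5 M in blastocyst and expanded ICM, and levels are given as CPM, counts scaled to 1 M of TMM-adjusted library size. POU5F1, NANOG, SOX2, GATA6 and PDGFRA had counts in all 12 libraries. The trophectoderm factor CDX2 lay between 0.0851 and 10.4 CPM, and the blood cell marker PTPRC was at 0 in 10 libraries and at 0.0414 and 0.177 CPM in the other 2. SOX17 and GATA3 were not analysed here. These are bulk libraries, so fewer cells of a type and less RNA per cell cannot be told apart.

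The library of hatched ICM replicate 1 stood apart from the other 11 in several lineage genes. Over all genes tested, its mean correlation with the other 11 was the lowest, at 0.797 on log2 CPM. Blastocyst replicates 2 and 1 were close to it, at 0.809 and 0.814. Hatched replicate 1 had 158 CPM of NANOG, against 1200 to 2890 CPM in the others, and 4.1 CPM of SOX2, against 9.43 to 49.6 CPM. CGB, a subunit of the placental hormone chorionic gonadotropin, had 1320 CPM in it and at most 3.12 CPM in the others. The trophoblast factor GATA2 had 1070 CPM, against at most 107 CPM. The summed level of the 8 matched trophectoderm genes was 1400 CPM in this library, and the range over the later arm was 300 to 1400 CPM (median 385), against 185 to 379 CPM (median 248) in the earlier arm. GATA2 is 1 of these 8 genes, and its 1070 CPM made most of the 1400 CPM. Values without this library are given below beside the results that it moves most.

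**Figure D1:**
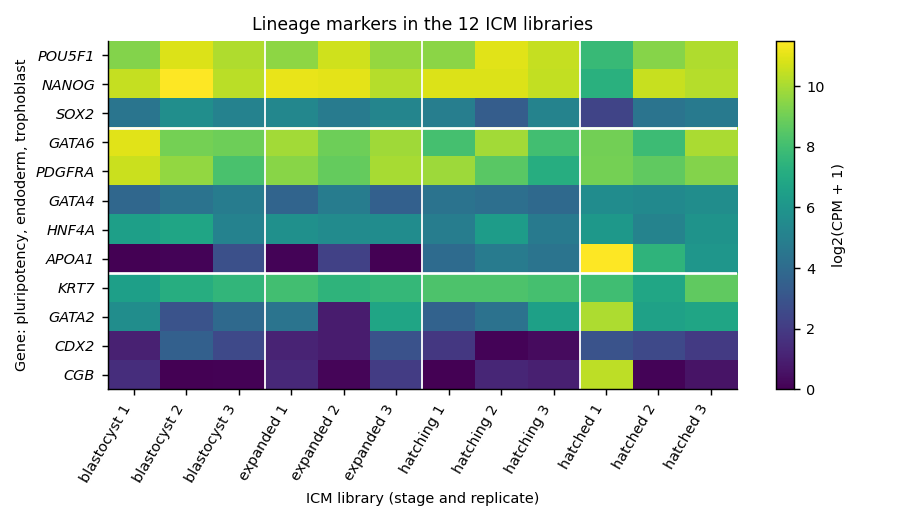
Levels of 12 lineage genes (rows) in each of the 12 ICM libraries (columns, by stage and replicate), coloured by log2(CPM + 1); white lines separate stages and gene groups. Hatched replicate 1 is dark for NANOG (158 CPM) and SOX2 (4.1 CPM) and bright for APOA1 (2810 CPM), GATA2 (1070 CPM) and CGB (1320 CPM).

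In the pooled comparison no gene was called. Among 13314 genes tested with the quasi-likelihood test of edgeR, 0 passed a Benjamini-Hochberg adjusted p of 0.05 (0% called), and the lowest adjusted p was 0.204. At an unadjusted p under 0.05 there were 943 genes (7.08% of those tested), with 464 higher (3.49%) and 479 lower (3.6%) in hatching and hatched ICM. DESeq2 on the same counts called 129 genes, 76 higher and 53 lower, and all 129 were among the 943. Leaving out hatched replicate 1, edgeR still called 0 genes, with 357 higher and 443 lower at an unadjusted p under 0.05. That total of 800 was 716 without hatched replicate 2, 773 without expanded replicate 3 and at most 1063, without hatching replicate 2. The differences below are therefore descriptions of genes that did not pass the test in edgeR, and "higher" and "lower" refer to means of 6 against 6 libraries. The biological coefficient of variation was 79.3%.

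A total of 88 genes (0.661% of those tested) had no overlap between the 6 later and the 6 earlier libraries. Of these, 46 were higher (0.346%) and 42 lower (0.315%) in hatching and hatched ICM, and 33 and 30 of them have a gene symbol. The genes described next are the 12 with the lowest p in each direction among those with a symbol and at least 10 CPM in the higher arm. A low p favours separation of the arms, so lack of overlap in the genes named by it is no further support. DESeq2 called 23 of these 24, all but APOA1.

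**Figure D2:**
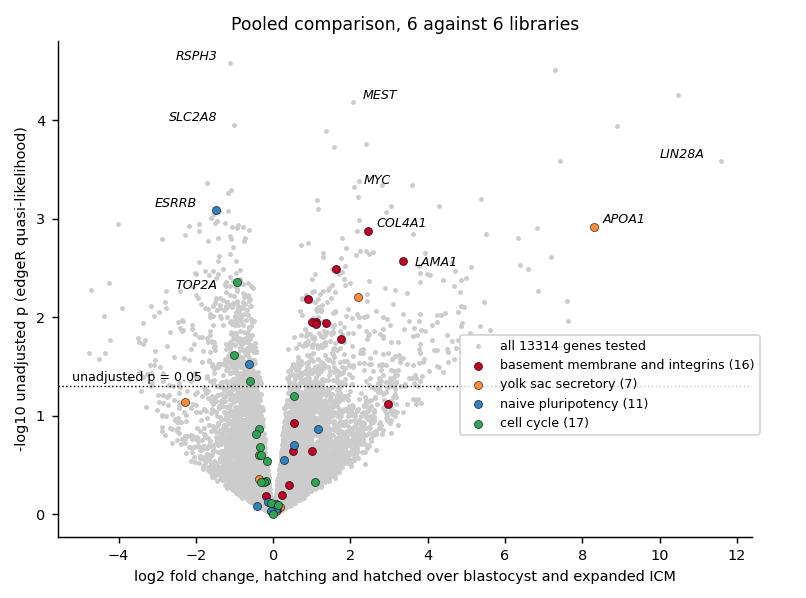
Log2 fold change of hatching and hatched over blastocyst and expanded ICM (x axis) against -log10 of the unadjusted edgeR p (y axis) for all 13314 genes tested, with members of 4 gene lists coloured. Of the 16 basement membrane and integrin genes 9 lie above the dotted line on the right, and of the 17 cell cycle genes 3 lie above it on the left; fitted values of genes with no count in 1 arm, such as LIN28A, depend on the fit and are no measure of size.

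Of the 12 higher genes, 5 encode matrix or secreted proteins: COL4A1, APOA1, HABP2, CPE and CST3. COL4A1 (ENSCJAG00000014430), a chain of basement membrane collagen, had 371, 205 and 207 CPM in hatching and 2070, 616 and 590 CPM in hatched ICM, against 27.4, 115 and 144 CPM in blastocyst and 80.4, 232 and 142 CPM in expanded ICM. All 3 hatched libraries were above all others, while the hatching libraries overlapped expanded replicate 2. The log2 fold change was 2.45 ± 0.61 (SE, adjusted p = 0.368 in edgeR, n = 6 each), and 1.69 without hatched replicate 1. APOA1 (ENSCJAG00000012644), the main protein of high-density lipoprotein and a product of yolk sac endoderm, had 15.1, 26.9 and 20.7 CPM in hatching and 2810, 177 and 64.7 CPM in hatched ICM, against 0, 0.0796 and 6.07 CPM in blastocyst and 0.072, 3.68 and 0 CPM in expanded ICM. The arms did not overlap, and the single value of 2810 CPM made most of the mean. Its log2 fold change was 8.3 ± 2.04 (SE, adjusted p = 0.368 in edgeR), and 5.2 without hatched replicate 1.

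HABP2, a plasma protease that binds hyaluronan, ranged from 2.86 to 61.8 CPM (median 13.1) in hatching and hatched ICM, against 0 to 1.44 CPM (median 0.205) in blastocyst and expanded ICM. CPE, a carboxypeptidase that trims peptide hormones, ranged from 98 to 588 CPM (median 113) in the later arm, against 27.1 to 64.3 CPM (median 31) in the earlier. CST3, the secreted protease inhibitor cystatin C, ranged from 218 to 519 CPM (median 272), against 86.9 to 192 CPM (median 137). None of these 3 overlapped between arms. Their log2 fold changes were 5.5, 2.4 and 1.17, with adjusted p of 0.368, 0.273 and 0.368 in edgeR (n = 6 each), and the value of HABP2 was 4.68 without hatched replicate 1, while that of CPE was 1.7 without hatched replicate 2.

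Among membrane and adhesion genes, PDPN, which encodes the membrane glycoprotein podoplanin, ranged from 16.5 to 165 CPM (median 36.1) in hatching and hatched ICM, against 0.0398 to 8.17 CPM (median 3.21) in blastocyst and expanded ICM. TRIP6, a LIM-domain protein of cell adhesion sites, ranged from 21.5 to 60 CPM (median 53.4), against 1.41 to 18.2 CPM (median 8.46). Both were higher in every later library than in any earlier one, and for each the stage mean was higher than the one before it at all 3 steps. MGAM, a brush border enzyme that digests starch, ranged from 0.532 to 47.8 CPM (median 8.69), against 0 to 0.259 CPM (median 0.0408). In hatching replicates 1 and 2 MGAM was under 1 CPM, so its separation there rests on low counts. Its log2 fold change was 7.42, and 6.27 without hatched replicate 1.

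The highest-ranked gene of the 12 by p was MEST (ENSCJAG00000010760), an imprinted gene expressed from the paternal copy. It had 55.4, 92.7 and 106 CPM in hatching and 83.5, 256 and 92.6 CPM in hatched ICM, against 26.4, 35.4 and 32 CPM in blastocyst and 14.8, 35.6 and 19.5 CPM in expanded ICM. The arms did not overlap, and the log2 fold change was 2.07 ± 0.37 (SE, adjusted p = 0.218 in edgeR, n = 6 each). SRI, the calcium-binding protein sorcin, ranged from 146 to 288 CPM (median 171), against 38 to 97.1 CPM (median 74.9), again with no overlap. MYC, a transcription factor of growth and cell division, ranged from 78.6 to 427 CPM (median 154), against 13.8 to 91.4 CPM (median 46.5). Only hatching replicate 1 and blastocyst replicate 3 overlapped for MYC, with a log2 fold change of 2.1 ± 0.46 (SE, adjusted p = 0.368 in edgeR). MSANTD1 had 0.331 to 38.5 CPM in the later arm, and 0 in 5 of the 6 earlier libraries, with 6 counts in the other. With so few earlier counts, MSANTD1 passed the low-count filter only because all 6 later libraries had counts.

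**Figure D3:**
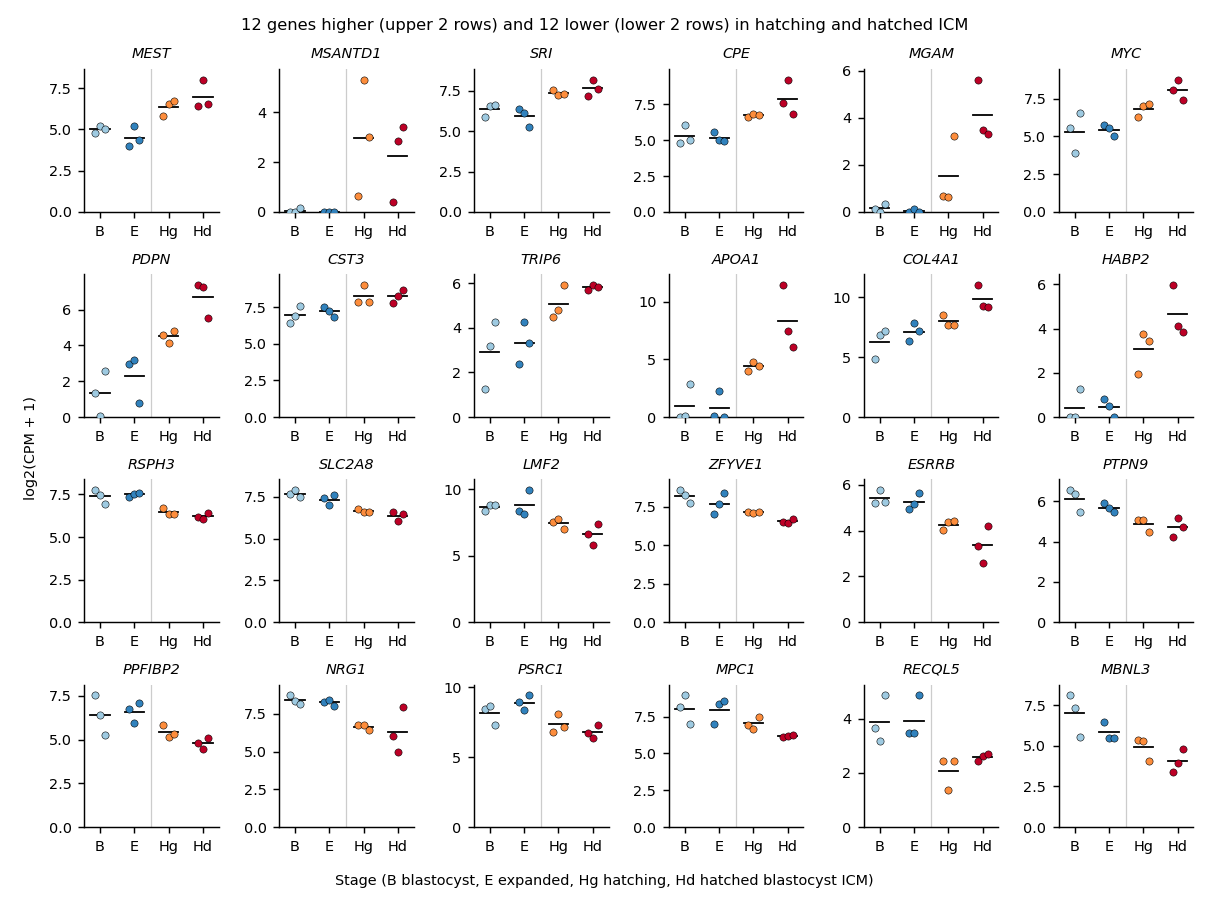
Log2(CPM + 1) of the 24 named genes in each library by stage, with the stage mean as a bar; the grey line separates the earlier stages (B, E) from the later (Hg, Hd). In the upper rows MYC and COL4A1 overlap between arms, and in the lower rows ZFYVE1, PPFIBP2, PSRC1 and MPC1 do.

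Of the 12 lower genes, 8 had no overlap between arms, against 0.315% of all genes tested, but picking them by p favours this. ESRRB (ENSCJAG00000020709), an orphan nuclear receptor known from mouse naive pluripotent cells, had 15.3, 19.6 and 20.2 CPM in hatching and 9.03, 4.93 and 17.7 CPM in hatched ICM, against 35.9, 53.8 and 36.8 CPM in blastocyst and 30.2, 34.7 and 49.2 CPM in expanded ICM. Every later library was below every earlier one. The log2 fold change was -1.47 ± 0.35 (SE, adjusted p = 0.368 in edgeR, n = 6 each), and it stayed between -1.59 and -1.29 when any 1 library was left out.

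RSPH3 (ENSCJAG00000011581), a radial spoke protein of motile cilia, had the lowest p of all genes tested. It had 104, 82.2 and 81.6 CPM in hatching and 70.1, 67 and 82.9 CPM in hatched ICM, against 216, 178 and 124 CPM in blastocyst and 165, 187 and 192 CPM in expanded ICM. The groups were apart and tight within each arm, with a log2 fold change of -1.12 ± 0.18 (SE, adjusted p = 0.204 in edgeR). NRG1, the growth factor neuregulin that signals through ERBB receptors, ranged from 30.1 to 247 CPM (median 95.6) in the later arm, against 261 to 423 CPM (median 320) in the earlier. Hatched replicate 3, at 247 CPM, was the one later library near the earlier range, and the log2 fold change was -1.6 ± 0.38 (SE, adjusted p = 0.368 in edgeR).

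Among genes of transport and metabolism, SLC2A8, a hexose transporter described in mouse blastocysts, ranged from 64.8 to 108 CPM (median 96.4) in hatching and hatched ICM, against 128 to 239 CPM (median 186) in blastocyst and expanded ICM. Its arms did not overlap, with a log2 fold change of -1.01 ± 0.19 (SE, adjusted p = 0.244 in edgeR). MPC1, a subunit of the carrier that takes pyruvate into mitochondria, ranged from 67.2 to 174 CPM (median 88.9), against 127 to 494 CPM (median 304). Its 3 hatched libraries, at 67.2 to 76.1 CPM, were all below the earlier arm, and hatching replicate 3 overlapped it. LMF2, of the lipase maturation factor family, ranged from 53.4 to 216 CPM (median 146), against 272 to 971 CPM (median 384), with no overlap.

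Other lower genes act on RNA, DNA and signalling. MBNL3, a muscleblind splicing regulator, ranged from 9.65 to 39.9 CPM (median 21.3) in the later arm, against 43.9 to 276 CPM (median 66.8) in the earlier. RECQL5, a DNA helicase, ranged from 1.6 to 5.42 CPM (median 4.4), against 7.98 to 28.1 CPM (median 10.8). Neither overlapped between arms, and their log2 fold changes were -2.18 and -1.92 (adjusted p = 0.368 in edgeR for both, n = 6 each). PTPN9, a tyrosine phosphatase, was also without overlap, at 17.7 to 34.9 CPM against 43 to 93.2 CPM. ZFYVE1, PPFIBP2 and PSRC1 had log2 fold changes of -1.17, -1.53 and -1.45.

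Among the other genes without overlap, the following were chosen after their values were seen. GC, the plasma carrier of vitamin D, had 33.7 to 683 CPM in hatching and hatched ICM, while 4 of the 6 earlier libraries were at 0 and the other 2 at 9.71 and 20.2 CPM. PTN, the growth factor pleiotrophin, had 0 counts in all 6 earlier libraries and 0.628 to 10.6 CPM in all 6 later ones, which is at least 366-fold higher against a floor of 3 counts over the arm. The low-count filter keeps such a gene only if all 6 later libraries have counts, so the separation of PTN was set in advance. SP8, a zinc finger transcription factor, had 13.8 to 164 CPM, against 0 to 8.02 CPM. For PTN, GC and SP8 the adjusted p in edgeR was 0.218, 0.499 and 0.49 (n = 6 each). The log2 fold changes of GC and SP8, 5.45 and 4.39, were 4.63 and 3.75 without hatched replicate 1. The floor covers counting error only.

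Genes of basement membranes and integrins made up the list with the most members at an unadjusted p under 0.05. Of 16 members tested, 15 had a log2 fold change above 0, and 9 were higher at an unadjusted p under 0.05, while 0 were lower and 0 were called. The median log2 fold change was 1.05, against 0.01 over all genes tested. Of all genes tested, 50.9% were above 0, and 3.49% were higher and 3.6% lower at that p. This list and those below were chosen with earlier results of these data known. The summed level of the list was 2780 to 13100 CPM (median 4350) in hatching and hatched ICM, against 2120 to 2850 CPM (median 2500) in blastocyst and expanded ICM. Without hatched replicate 1 the list had 8 higher members and a median of 0.8, and within the 8 libraries whose 2 count columns were nearly equal in size it had 6 and 0.82. Those 8 also leave out hatched replicate 1, with replicate 2 of blastocyst, expanded and hatching ICM. In the other alternatives with 1 library left out the list had 9 or 10 higher members. Hatched replicate 1 had the highest summed level of this list, 13100 CPM, and also of the trophectoderm list, where GATA2 made most of the sum. Hatched replicates 2 and 3 had 6040 and 4760 CPM of the basement membrane list, with 300 and 593 CPM of trophectoderm genes.

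LAMA1 (ENSCJAG00000015553), an alpha chain of laminin, was the one member without overlap. It had 116, 131 and 154 CPM in hatching and 2100, 700 and 317 CPM in hatched ICM, against 74, 1.19 and 113 CPM in blastocyst and 43.1, 63.9 and 45.6 CPM in expanded ICM. The gap between the lowest later and the highest earlier library was narrow, while the hatched libraries were well above. Its log2 fold change was 3.37 ± 0.92 (SE, adjusted p = 0.451 in edgeR, n = 6 each), and 2.32 without hatched replicate 1.

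Partner chains of the same network went the same way with smaller differences. LAMB1 and LAMC1, the beta and gamma chains that join LAMA1, averaged 656 ± 472 and 645 ± 620 CPM in the later arm, against 301 ± 80.1 and 251 ± 85.3 CPM in the earlier (SD, n = 6 each). COL4A2, the partner of COL4A1, averaged 211 ± 234 CPM against 62.4 ± 39.1 CPM, and NID1, which links laminin to collagen, 250 ± 85.3 CPM against 133 ± 57.5 CPM. Arms overlapped for all 4 genes. Without hatched replicate 1 the log2 fold change of COL4A2 was 0.9 (unadjusted p = 0.0954 in edgeR, with the main value at 1.76), and that of LAMC1 was 0.66 in place of 1.36.

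SERPINH1, the collagen chaperone of the endoplasmic reticulum, averaged 826 ± 587 CPM against 269 ± 126 CPM, and ITGA5, the fibronectin receptor subunit, 191 ± 36.8 CPM against 88.6 ± 58.9 CPM (SD, n = 6 each). LAMB2 averaged 163 ± 48.3 CPM against 81.6 ± 45.8 CPM. The fibronectin gene FN1 had 89.2 ± 99 CPM against 11.3 ± 18.2 CPM, with an unadjusted p of 0.076 in edgeR. HSPG2, the heparan sulfate proteoglycan perlecan, was the member below 0, at a log2 fold change of -0.18.

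**Figure D4:**
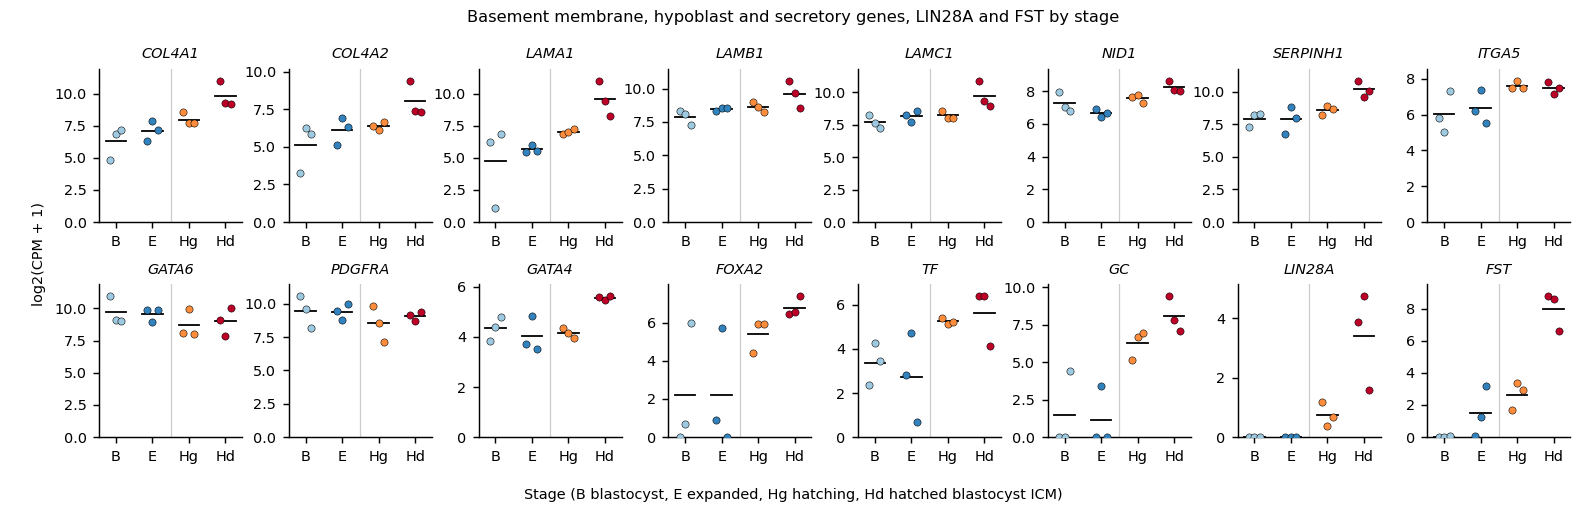
Log2(CPM + 1) of 16 genes in each library by stage (B blastocyst, E expanded, Hg hatching, Hd hatched), with stage means as bars. COL4A1, LAMA1 and SERPINH1 are highest in hatched ICM, GATA6 and PDGFRA overlap across stages, and LIN28A has counts only in hatching and hatched libraries.

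Among regulators of the hypoblast the values were mixed. Of 8 members tested, 0 were higher and 0 lower at an unadjusted p under 0.05, with a median log2 fold change of 0.2. GATA6 averaged 555 ± 372 CPM in hatching and hatched ICM, against 904 ± 580 CPM in blastocyst and expanded ICM, and PDGFRA 508 ± 262 CPM against 796 ± 445 CPM (SD, n = 6 each). GATA4 had 19.6, 17.1 and 14.4 CPM in hatching and 47.2, 43 and 49 CPM in hatched ICM, against 13.5, 20 and 27.1 CPM in blastocyst and 12, 27.5 and 10.5 CPM in expanded ICM. All 3 hatched libraries were above the other 9, and the pooled unadjusted p was 0.0712 in edgeR. FOXA2, an endoderm factor, had 20 to 168 CPM in the later arm, against 0 to 0.864 CPM in 4 earlier libraries and 51.7 and 62.3 CPM in the other 2.

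Of 7 yolk sac secretory genes tested, 2 were higher at an unadjusted p under 0.05, APOA1 and TF, against 3.49% of all genes tested. TF, transferrin, ranged from 16.4 to 83.9 CPM (median 38.7), against 0.61 to 25.2 CPM (median 7.97), and its log2 fold change was 2.2 ± 0.68 (SE, unadjusted p = 0.00629 in edgeR). LRP2 and CUBN, the uptake receptors of yolk sac endoderm, had log2 fold changes of -0.37 and 0.18. The median of the list was 0.11.

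Few pluripotency genes differed beyond the spread between libraries. The naive list had 0 of 11 higher and 2 lower at an unadjusted p under 0.05, against 3.49% and 3.6% of all genes tested. The 2 were ESRRB and NLRP7, and the median log2 fold change of the list was 0.05. NLRP7 averaged 1260 ± 432 CPM in hatching and hatched ICM, against 1950 ± 505 CPM in blastocyst and expanded ICM, and its unadjusted p in edgeR was 0.0634 without hatched replicate 1 and 0.0636 at the highest over the 12 libraries left out in turn. KLF4 averaged 526 ± 219 CPM against 509 ± 156 CPM, and KLF17, a factor of primate naive cells, 105 ± 62 CPM against 46.6 ± 25.6 CPM (SD, n = 6 each). KLF17 had 0.746 CPM in hatched replicate 1 and 92.6 to 180 CPM in the other 5 later libraries, which were all above the earlier arm.

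Of 9 shared pluripotency genes, LIN28A and LIN28B were higher and GDF3 lower at an unadjusted p under 0.05, with a median of -0.14. The shares over all genes tested were 3.49% higher and 3.6% lower. The log2 fold change of LIN28B was 1.51, and 1.06 without hatched replicate 1 (unadjusted p = 0.0815 in edgeR), and the list had 1 higher member without hatched replicate 1 or hatched replicate 2. POU5F1 averaged 1030 ± 626 CPM against 1130 ± 500 CPM, and NANOG 1330 ± 634 CPM against 1850 ± 658 CPM. GDF3, a TGF-beta family ligand of pluripotent cells, averaged 1190 ± 243 CPM against 2030 ± 624 CPM (SD, n = 6 each), and only blastocyst replicate 1, at 1160 CPM, lay within the later range. Of 8 postimplantation and primed genes, 7 were above 0, against 50.9% of all genes tested, with a median of 1.82. SFRP2, a secreted WNT inhibitor, was the one at an unadjusted p under 0.05. SFRP2 had 280 CPM in hatched replicate 2, 0 and 0.953 CPM in the other hatched libraries and 7.92 to 44.8 CPM in hatching ICM, against 0 to 7.11 CPM in the earlier arm. The number of members of this list higher at an unadjusted p under 0.05 was 0 without hatched replicate 2, 3 without hatched replicate 1 and up to 4 without blastocyst replicate 3. ZIC2, a factor of the later epiblast, averaged 22.1 ± 13.9 CPM, against 7.61 ± 7.02 CPM, with an unadjusted p of 0.0773 in edgeR (SD, n = 6 each).

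Most cell cycle genes had a log2 fold change below 0. Of 17 tested, 4 were above 0, against 50.9% of all genes tested, and the median was -0.31. At an unadjusted p under 0.05, 0 were higher and 3 lower, against 3.49% and 3.6% of all genes tested. TOP2A, the topoisomerase of dividing cells, averaged 176 ± 35.7 CPM in hatching and hatched ICM, against 338 ± 144 CPM in blastocyst and expanded ICM. The proliferation marker MKI67 averaged 77 ± 36.1 CPM against 155 ± 83 CPM, and CCND3, a G1 cyclin, 521 ± 173 CPM against 792 ± 247 CPM (SD, n = 6 each). Arms overlapped for all 3, and the number of lower members was 1 without expanded replicate 3, hatching replicate 3 or hatched replicate 2, and 5 without blastocyst replicate 3.

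Of 14 Hippo pathway genes tested, which link cell contact and tension to the coactivator YAP1, 3 were higher and 1 lower at an unadjusted p under 0.05, with a median of 0.35. Of all genes tested, 3.49% were higher and 3.6% lower. CCN1, a matrix protein and known YAP1 target, had 0, 13.2 and 12.4 CPM in hatching and 1.33, 21.6 and 32.3 CPM in hatched ICM, against 0 to 0.758 CPM in the earlier arm. AMOTL2, another YAP1 target, averaged 94.5 ± 97.1 CPM against 20.6 ± 20.6 CPM, YAP1 28.9 ± 24.6 CPM against 12.6 ± 4.9 CPM, and NF2, an upstream activator of the pathway, 48.7 ± 13.5 CPM against 94.9 ± 46.2 CPM (SD, n = 6 each). Without hatched replicate 1 the log2 fold change of YAP1 was 0.63 (unadjusted p = 0.174 in edgeR) in place of 1.2, and that of AMOTL2 was 1.46 (unadjusted p = 0.0261) in place of 2.19.

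In the LIF-STAT3 list 0 of 7 were higher and 2 lower at an unadjusted p under 0.05, against 3.49% and 3.6% of all genes tested. STAT3, the transducer of LIF and IL6 signals, had 72.3, 76.4 and 26.6 CPM in hatching and 45.6, 26.9 and 51.8 CPM in hatched ICM, against 256, 123 and 72.2 CPM in blastocyst and 158, 78 and 121 CPM in expanded ICM. Only blastocyst replicate 3 lay within the later range, and the log2 fold change was -1.43 ± 0.36 (SE, unadjusted p = 0.00155 in edgeR). IL6R, the interleukin 6 receptor, averaged 11.3 ± 5.35 CPM against 24.4 ± 10.3 CPM. Among 9 NODAL and activin genes, FST was higher, and NODAL itself averaged 248 ± 140 CPM against 214 ± 155 CPM.

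Of 16 secreted proteases and inhibitors, a group that includes enzymes linked to hatching and implantation in mammals, 3 were higher and 0 lower at an unadjusted p under 0.05, with a median of -0.06. Of all genes tested, 3.49% were higher and 3.6% lower. The number of higher members of this list was 1 without any 1 of blastocyst replicate 1, expanded replicates 1 and 3 and hatched replicates 1 and 2. It was 2 without blastocyst replicate 2 or hatched replicate 3. The metalloprotease inhibitor TIMP1 had 564 CPM in hatched replicate 1 and 9.35 to 36.4 CPM in the other 5 later libraries, against 1.92 to 18.4 CPM in the earlier arm. SERPINE2 and PLAT, an inhibitor of serine proteases and the tissue plasminogen activator, averaged 427 ± 453 and 451 ± 255 CPM, against 101 ± 106 and 250 ± 113 CPM (SD, n = 6 each). Without hatched replicate 1 the unadjusted p in edgeR was 0.0121 for TIMP1, 0.11 for SERPINE2 and 0.161 for PLAT, and the log2 fold change of TIMP1 was 1.72 in place of 3.92. CTSB and MMP2, a cathepsin and a gelatinase, had log2 fold changes of 0.19 and -0.28.

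Of 16 genes of junctions and the blastocoel pump, 1 was higher and 2 lower at an unadjusted p under 0.05. The shares of all genes tested were 3.49% and 3.6%. The 2 lower genes were ATP1B1 and CDH1, and the list median was -0.08. ATP1B1, the beta subunit of the sodium pump that fills the cavity, averaged 77.3 ± 39.5 CPM against 167 ± 101 CPM, and E-cadherin, CDH1, 175 ± 50.2 CPM against 270 ± 88.7 CPM (SD, n = 6 each). Their unadjusted p in edgeR reached 0.0847 and 0.075 when 1 library was left out. Glycolysis genes gave 2 higher of 14, against 3.49% of all genes tested. The 2 were PGK1 and the glucose transporter SLC2A1. SLC2A1 had 2160 CPM in hatched replicate 1 and 121 to 498 CPM in the other later libraries, against 92.6 to 408 CPM in the earlier arm. Its log2 fold change was 1.78, and 0.84 without hatched replicate 1 (unadjusted p = 0.106 in edgeR), where the list had 1 higher member. Cholesterol synthesis genes gave 0 higher and 0 lower of 13, with 12 above 0, against 50.9% of all genes tested. Their median was 0.44, and 0.17 without hatched replicate 1. Without hatching replicate 3, 5 of these 13 were higher, without expanded replicate 1 there were 3, and without blastocyst replicate 1 there were 2.

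Lists of other lineages were examined for cells outside the ICM. Of 8 trophectoderm genes GATA2 was higher at an unadjusted p under 0.05, against 3.49% of all genes tested, with a list median of -0.22. Among the syncytiotrophoblast genes only CGB was tested. Without hatched replicate 1 the log2 fold change of GATA2 was 0.96 in place of 2.81, and that of CGB was -0.88 in place of 7.64. CGB belongs to a family of close copies, so its counts may be shared between copies. What trophoblast RNA contributed to the values of hatched replicate 1 was not tested. The lists for amnion (2 tested), primitive streak (3), maternal oocyte (2), zygotic genome activation (1), maternal tissue and blood (3) and embryo sex (1) held 0 members at an unadjusted p under 0.05. The summed level of the 5 matched amnion genes was nonetheless 479 CPM in hatched replicate 1, against 14.8 to 84.4 CPM in the other libraries.

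Of 7 primordial germ cell genes, PDPN was higher and PRDM1, a repressor that acts in germ cell specification, was lower, at 15.4 ± 9.93 CPM against 47.6 ± 35.7 CPM (SD, n = 6 each). Single members passed an unadjusted p of 0.05 in several pathway lists, while 3.49% of all genes tested were higher and 3.6% lower. MYC was higher among 3 immediate early genes, and HSPA5, the chaperone of the endoplasmic reticulum, among 8 heat shock genes. SPRED2, an inhibitor of ERK signalling, was lower among 10 FGF-ERK genes, SDHA, a subunit of mitochondrial complex II, among 15 oxidative phosphorylation genes, and PLIN2, a lipid droplet coat protein, among 7 lipid and retinoid genes. HSPA5 averaged 837 ± 763 CPM against 386 ± 77.4 CPM and had a log2 fold change of 0.71 (unadjusted p = 0.164 in edgeR) without hatched replicate 1, in place of 1.12. When 1 library was left out, the highest unadjusted p in edgeR was 0.157 for SPRED2, 0.105 for PLIN2 and 0.101 for SDHA. Lists for actomyosin, BMP, WNT, hypoxia, DNA methylation, apoptosis and the integrated stress response held 0 such members, with medians between -0.12 and 0.46.

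**Figure D5:**
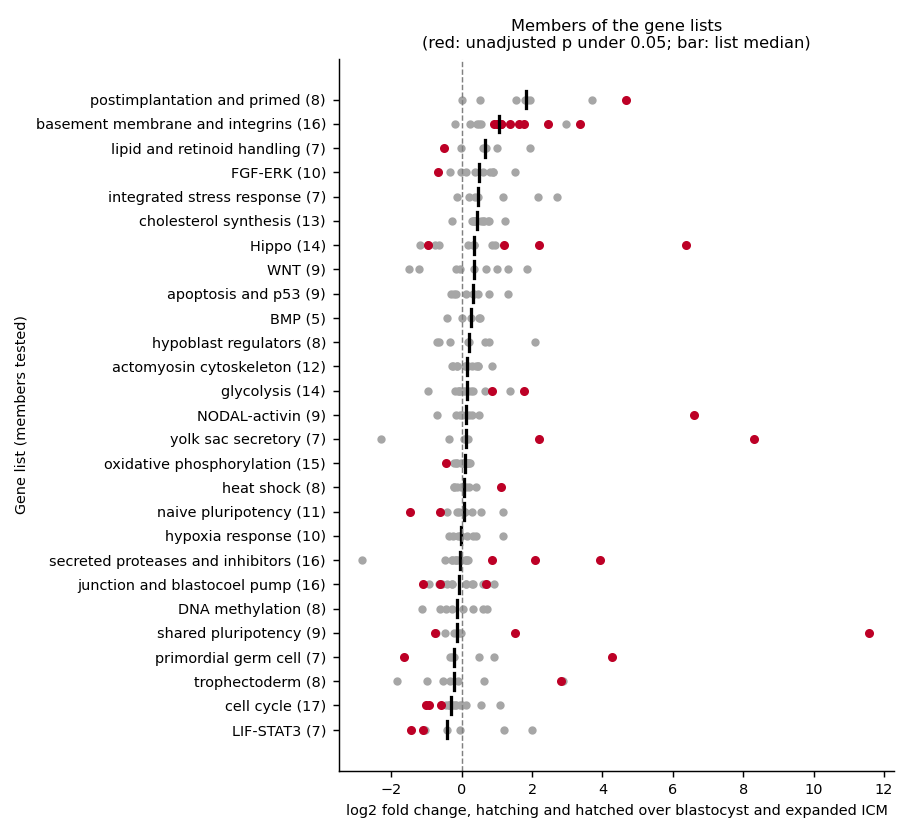
Log2 fold change of hatching and hatched over blastocyst and expanded ICM (x axis) for the members of each gene list with at least 5 members tested (rows, number tested in brackets). Red points have an unadjusted edgeR p under 0.05, black bars are list medians and the dashed line is the median of all genes tested (0.01); the basement membrane list holds 9 red points, all to the right, and its median is 1.05.

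Over the order of 4 stages, a linear trend called 3 of 13314 genes (0.0225%), all rising, with 1292 genes (9.7%) at an unadjusted p under 0.05, 676 upward (5.08%) and 616 downward (4.63%). LIN28A (ENSCJAG00000009796), an RNA-binding protein that blocks let-7 maturation, rose most clearly. It had 0 counts in the 3 blastocyst and the 3 expanded libraries, 1.27, 0.298 and 0.584 CPM in hatching and 13.7, 26 and 1.98 CPM in hatched ICM. All 6 later libraries had counts, which is at least 781-fold higher than the earlier arm against a floor of 3 counts over the arm. With 0 in all 6 earlier libraries, LIN28A could enter the test only if all 6 later ones had counts. Its separation was thus set in advance by the low-count filter. The adjusted p of the trend was 0.00335 in edgeR, and it was 0.0693 without hatched replicate 2, the library with 26 CPM.

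FST (ENSCJAG00000001590), the activin antagonist follistatin, rose with a trend of 3.73 on the log2 scale per stage (adjusted p = 0.0298 in edgeR). It had 0, 0 and 0.0399 CPM in blastocyst, 0.072, 1.34 and 8.22 CPM in expanded, 2.23, 9.11 and 6.56 CPM in hatching and 442, 379 and 96.7 CPM in hatched ICM. Hatched ICM was far above the other stages, and expanded and hatching ICM overlapped. The third call was the unnamed gene ENSCJAG00000000990, at 0.57 per stage (adjusted p = 0.0298 in edgeR). The number of trend calls was 0 without hatched replicate 2, 46 without blastocyst replicate 3 and 7 without hatched replicate 3. It was 1, LIN28A, without any 1 of blastocyst replicates 1 and 2, expanded replicate 1, hatched replicate 1 and the 3 hatching libraries. The adjusted p of FST ranged from 0.00087 to 0.133 when 1 library was left out.

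The genes next in rank did not pass. SLC19A1, the reduced folate carrier, averaged 0, 0.231, 1.43 and 33.3 CPM over blastocyst, expanded, hatching and hatched ICM. SLC2A8 averaged 207, 163, 100 and 83.1 CPM, ZFYVE1 298, 220, 138 and 92.4 CPM, and MBNL3 160, 58.7, 31.1 and 17 CPM. All 4 had an adjusted trend p of 0.0545 in edgeR (n = 3 per stage). Stage means moved in 1 direction at every step for PDPN, TRIP6 and COL4A1 among the 12 higher genes, and for 7 of the 12 lower genes, including ESRRB and MPC1. Over all genes tested, 6.96% increased and 7.44% decreased at every step. The 12 higher and 12 lower genes were picked by the pooled p, which favours 1 direction across the middle step, so these shares are not a like comparison. Of the 46 higher genes without overlap 50% increased at every step, and of the 42 lower ones 52.4% decreased. Lack of overlap between the arms already fixes the direction of the middle step, from expanded to hatching ICM. The shares of the genes without overlap therefore cannot be compared with those over all genes tested either.

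No gene was called in any single step with edgeR (0% of 13314 in each). For expanded over blastocyst ICM, 418 genes (3.14%) had an unadjusted p under 0.05, 255 higher (1.92%) and 163 lower (1.22%), with a lowest adjusted p of 0.667. For hatching over expanded ICM there were 288 (2.16%), 130 higher (0.976%) and 158 lower (1.19%), with a lowest adjusted p of 1. For hatched over hatching ICM there were 529 (3.97%), 333 higher (2.5%) and 196 lower (1.47%), with a lowest adjusted p of 0.483.

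Leading genes of the first step were TRADD, an adaptor of the TNF receptor, at 16.4 CPM in expanded and 3.1 CPM in blastocyst ICM, and RAB34, a small GTPase, at 28.2 CPM in expanded and 7.96 CPM in blastocyst ICM. CSPP1, a centrosome protein, had 2.15 CPM in expanded and 22.6 CPM in blastocyst ICM. In the second step MSANTD1, SRI and MEST led on the higher side and RSPH3 was among the lower genes, so these overlap with the pooled comparison. PSEN2, a presenilin, averaged 19.2 CPM in hatching and 83.1 CPM in expanded ICM, with 32.7 CPM in hatched ICM. COQ8A, which acts in coenzyme Q synthesis, averaged 30.2 CPM in hatching and 105 CPM in expanded ICM.

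The step from hatching to hatched ICM held the lowest step p-values. AKAP12, a scaffold of protein kinase A, had 746, 335 and 411 CPM in hatched ICM, against 141, 101 and 90.4 CPM in hatching ICM. CCKBR, a gastrin and cholecystokinin receptor, had 373, 143 and 80.2 CPM, against 13.4, 21.2 and 9.1 CPM. GPT2, a mitochondrial alanine transaminase, had 265, 253 and 204 CPM, against 29.5, 29.8 and 54.3 CPM. The 3 genes did not overlap between these stages, but they were picked by the lowest p of the step, which favours separation. The share of all genes without overlap at 3 against 3 was not computed. The adjusted p of the 3 genes were 0.483, 0.483 and 0.649 in edgeR (n = 3 each). On the lower side RSRP1 had 66.6, 95.8 and 56 CPM in hatched ICM, against 195, 242 and 253 CPM in hatching ICM, with an adjusted p of 0.483 in edgeR. JAML, a junctional adhesion molecule, averaged 5.14 CPM in hatched and 37.7 CPM in hatching ICM, and CARD14, a scaffold of NF-kB signalling, 5.08 CPM in hatched and 22.4 CPM in hatching ICM.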

How the data were processed

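The authors deposited raw counts per gene for 30811 Ensembl gene IDs, with 2 columns per library. The submitters' processing notes name Trim Galore 0.4.0, STAR 2.5.3a and featureCounts 1.5.2. The genome build, the annotation and the strand setting were "not given in the sources used here". Even numbers made up 64.8% of counts between 1 and 49 and 51.4% of those from 500 up. Both mates of a read pair may thus have been counted, and small counts then hold fewer fragments. Libraries were made with the TruSeq Stranded mRNA kit, per the labels' protocols. The 2 columns of each library were summed, and 6 columns that belong to no sample were not used. Symbols were joined by gene ID and covered 12660 IDs (41.1%), so the other genes could be tested but not named or listed.

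The 12 libraries were fitted with the quasi-likelihood test of edgeR 4.0.16 in R 4.3.3 (filterByExpr, TMM, robust dispersion, two-sided), as 2 arms, as 4 stages and as a linear trend, with Benjamini-Hochberg adjustment over all 13314 genes tested and calls at an adjusted p under 0.05. The code was tested on simulated data. CPM used TMM-scaled library sizes. The alternatives were DESeq2 1.42.0, its size factors, other filters on low counts, halved counts, a replicate block, other designs, leaving out each library and, added after seeing the data, a split by the ratio of the 2 columns of a library. Named genes were the 12 higher and 12 lower with a symbol and at least 10 CPM in the higher arm, ranked by p since none was called, 3 each way per step and trend, and members of 35 gene lists. Of 515 listed symbols 349 were matched and 296 tested. The comparison, the rule and the lists were chosen with earlier results of these data known. Lists were described by counts and medians, without set tests.

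Promoter motifs were not analysed here, and some listed genes are not reported here.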

Additional observations from a re-analysis of the deposited data

Results flagged for a closer look

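A total of 118 groups of 6 libraries (named genes and summed gene lists, in each arm) were searched for a library far from the other 5, and 6 were found, while chance flags about 1 in 20 groups. In hatched ICM replicate 1 the summed yolk sac secretory level was 3770 CPM, of which APOA1 gave 2810 CPM, and the summed syncytiotrophoblast level was 1320 CPM, nearly all of it CGB. In hatching ICM replicate 2 RECQL5 was at 1.6 CPM, below the other 5 later libraries. MSANTD1 had 0.12 CPM in blastocyst ICM replicate 3 and 0 in the other earlier libraries, a pattern that the search flags at any value above 0. In blastocyst ICM replicate 1 the summed WNT list was low, at 52.5 CPM, against 115 to 151 CPM in the other 5, and the summed Hippo list was high, at 912 CPM, against a median of 348 CPM over the earlier arm.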

How the results depend on the processing

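The pooled comparison called 0 genes with the size factors of DESeq2, without a low-count filter, with a filter of 1 CPM, with halved counts, with the replicate block (0), with the column ratio as a covariate, within the 8 libraries of near-equal columns and without any 1 library. It called 129 with DESeq2 (76 higher, 53 lower), 1 with the 4 stage means (1 higher) and 7 with all 21 embryo libraries in the fit (6 higher, 1 lower). Single steps called 0 genes under every alternative run for them. The trend called 3 genes, 25 without a low-count filter and 25 with the 1 CPM filter, 1 with the replicate block and 1 with the column ratio as a covariate, and 0 to 46 when 1 library was left out. LIN28A was not tested with halved counts. The CGB log2 fold change ranged from -0.88 to 8.3 when 1 library was left out, with the negative value without hatched replicate 1. It was -0.21 with the column ratio as a covariate and -2 within the 8 libraries, which also leave out hatched replicate 1. That library carries nearly all counts of CGB. CGB was the 1 gene of the 63 followed through the alternatives that changed sign. Same-numbered libraries showed no strong shared deviation over all genes (r between -0.206 and 0.17 over 18 pairs, 4 above 0.1). This check cannot decide whether the numbers mark a pairing or batch. Replicate 2 of blastocyst, expanded and hatching ICM, and replicate 1 of hatched ICM, had a second column of 96 to 97% of the first. With counts halved, 937 genes had an unadjusted p under 0.05, against 943. In hatching ICM all LIN28A values and MGAM in 2 libraries were near or under 1 CPM, so few counts lie behind them.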
